A study of Mus musculus with 8 samples.

Results

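Neutrophil granule and S100 genes were followed in mouse pro-B cell lines that lack Ebf1, in 4 groups. The 10 genes were Mpo, Elane, Prtn3 and Ctsg (primary granule), Ngp and Camp (secondary granule), Lyz1 and Lyz2 (lysozyme), and S100a8 and S100a9 (S100). They were found by matching the transcript accession of every non-control probe to these symbols, which gave 11 probes, 1 for each gene and a further dimmer one for Camp. The whole array held 20125 named genes. All cells came from progenitors of midgestation fetal livers that lack EBF1, the transcription factor that commits progenitors to the B lineage, and that had been depleted of cells carrying TER119 or Gr-1, and all were grown with SCF, Flt3L and IL-7. The pro-B(+) line, which has T-lineage potential, came from culture on OP9 stroma, and the pro-B(-) line, which has none, from culture on TD7, a thymic stromal line. The other groups were pro-B(-) cells given an empty lentiviral vector that carries rat CD2 as a reporter (pro-B(-)/Mock) or the same vector with mouse Lmo2, a bridging factor of haematopoietic transcription complexes (pro-B(-)/LMO2). Each group had 2 one-colour arrays. Each of the groups was 1 line or 1 transduced line, and the labels give neither the stroma on which the transductants were kept nor whether replicates were separate cultures, so that a p-value here measures only the spread between these arrays, which may be technical.

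Neutrophils and their precursors store antimicrobial proteins in granules that form in sequence. Primary (azurophil) granules appear at the promyelocyte stage and hold myeloperoxidase and the serine proteases, and secondary (specific) granules appear later, at the myelocyte stage, and hold cathelicidin, lactoferrin and related proteins. Lysozyme is made by neutrophils, monocytes and macrophages, and S100A8 and S100A9 pair as calprotectin, an abundant cytosolic protein of neutrophils and monocytes that binds calcium, zinc and manganese. C/EBP factors and PU.1 are the best known activators of these genes in myeloid cells.

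The regions before the start of 7 of the genes are shown because these genes gave the contrasting patterns described further on: Mpo values overlapped between pro-B(-)/LMO2 and pro-B(+) cells, the neighbours Prtn3 and Elane differed in their response, the paired genes Lyz1 and Lyz2 moved together, and the paired genes S100a8 and S100a9 were measurable in pro-B(+) cells alone. Each sequence is the 250 bases before the annotated gene start in RefSeq (GRCm38.p6), written 5′ to 3′ on the strand of the gene. Capitals mark the letters TTNNGNAA (a C/EBP-type motif), GAGGAA (a PU.1-type motif) and TGTGGT (a RUNX-type motif), searched on both strands, which do not overlap each other in these sequences. The Mpo window lies at chr11:87793534-87793783 (plus strand), and those of Prtn3 and Elane at chr10:79879417-79879666 (plus strand) and chr10:79886062-79886311 (plus strand). Windows of the lysozyme genes are chr10:117292869-117293118 (minus strand) for Lyz1 and chr10:117282273-117282522 (minus strand) for Lyz2. Those of the S100 genes are chr3:90668821-90669070 (plus strand) for S100a8 and chr3:90695722-90695971 (minus strand) for S100a9.
Mpo: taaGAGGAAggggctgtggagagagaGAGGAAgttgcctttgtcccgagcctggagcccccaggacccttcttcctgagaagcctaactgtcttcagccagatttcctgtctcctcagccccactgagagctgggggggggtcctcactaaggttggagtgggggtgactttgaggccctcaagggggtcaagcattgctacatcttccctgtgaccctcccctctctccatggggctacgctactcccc
Prtn3: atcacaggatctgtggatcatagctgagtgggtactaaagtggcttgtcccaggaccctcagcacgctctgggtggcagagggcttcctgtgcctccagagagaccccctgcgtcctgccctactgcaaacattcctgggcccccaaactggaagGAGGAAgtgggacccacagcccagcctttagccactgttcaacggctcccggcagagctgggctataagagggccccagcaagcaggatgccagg
Elane: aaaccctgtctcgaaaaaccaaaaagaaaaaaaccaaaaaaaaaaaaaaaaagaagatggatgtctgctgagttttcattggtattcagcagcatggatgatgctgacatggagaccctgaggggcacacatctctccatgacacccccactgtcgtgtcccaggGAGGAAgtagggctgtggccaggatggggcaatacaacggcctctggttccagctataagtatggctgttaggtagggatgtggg
Lyz1: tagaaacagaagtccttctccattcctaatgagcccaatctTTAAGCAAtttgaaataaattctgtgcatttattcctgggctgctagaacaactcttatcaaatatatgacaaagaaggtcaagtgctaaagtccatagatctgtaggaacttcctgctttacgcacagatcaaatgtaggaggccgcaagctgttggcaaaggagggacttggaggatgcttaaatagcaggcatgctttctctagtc
Lyz2: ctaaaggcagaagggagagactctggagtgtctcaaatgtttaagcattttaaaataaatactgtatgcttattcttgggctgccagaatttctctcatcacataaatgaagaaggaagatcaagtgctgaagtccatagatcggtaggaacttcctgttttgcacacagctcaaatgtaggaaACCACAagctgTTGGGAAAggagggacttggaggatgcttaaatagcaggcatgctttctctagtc
S100a8: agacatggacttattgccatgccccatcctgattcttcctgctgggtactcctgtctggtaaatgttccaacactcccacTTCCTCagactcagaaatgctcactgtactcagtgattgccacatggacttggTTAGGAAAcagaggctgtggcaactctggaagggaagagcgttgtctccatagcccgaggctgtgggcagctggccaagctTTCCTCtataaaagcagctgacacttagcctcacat
S100a9: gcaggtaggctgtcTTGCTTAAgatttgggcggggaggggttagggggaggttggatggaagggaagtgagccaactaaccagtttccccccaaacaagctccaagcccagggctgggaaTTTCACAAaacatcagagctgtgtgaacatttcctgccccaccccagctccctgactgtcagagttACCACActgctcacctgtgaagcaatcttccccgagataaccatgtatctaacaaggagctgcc

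In these windows the PU.1-type letters were found for all 4 primary granule genes (Mpo, Elane, Prtn3 and Ctsg) and for S100a8, and the C/EBP-type letters for Ngp, Lyz1, Lyz2, S100a8 and S100a9. Thus 5 of 10 members held the PU.1-type letters, against 23.3% of 32851 windows of the same length before annotated mouse genes. The C/EBP-type letters were found in 5 of 10 members as well, and in 36.8% of all windows. RUNX-type letters were in 3 of 10 members (Ctsg, Lyz2 and S100a9) and in 14% of all windows. An E-box of the form CAGNTG, a type of letters bound by partners of LMO2, was in 3 of 10 members (Ctsg, S100a8 and S100a9) and in 44.8% of all windows, and the letters AGATAA of a GATA-type motif were in 1 member (S100a9) and in 9.99% of all windows. Camp held none of these 5 motifs. The Lyz1 and Lyz2 windows were identical at 200 of 248 aligned bases (80.6%), whereas those of S100a8 and S100a9 shared 126 of 218 (57.8%). A match of letters is a description and not a measured site.

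In the order of protein-coding genes, Prtn3 and Elane are next to each other on chromosome 10, as are Lyz2 and Lyz1 on another stretch of it, and S100a8 and S100a9 on chromosome 3. Ngp and Camp are both on chromosome 9 but are not neighbours, Mpo is next to Lpo on chromosome 11, and Ctsg lies between Mcpt8 and Gzme on chromosome 14, among mast cell protease and granzyme genes. Lyz1 and Lyz2 are close copies of one gene, and whether either probe also binds the other transcript was not examined.

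Values are given as normalized log2 intensities, where 0 is the 75th percentile of the array. Arrays had 56.5% to 61.2% of probes well above background, and replicate arrays correlated at r = 0.999 with an SD of their log2 difference of 0.130 to 0.150 over 20376 probes. Where no array of a group had a signal well above background, the signal only bounds the level, and a fold against it is given as "at least". Such a bound sets the dim group on each array at the higher of its own signal and the lowest signal among probes well above background. The adjusted p beside a bound comes from the limma fit to the signals as read, those at background included. It does not test the size of the bound. Pro-B(+) and pro-B(-) arrays shared 1 slide, and pro-B(-)/Mock and pro-B(-)/LMO2 arrays another, so the comparisons of the parental lines and of the vectors are each within a slide, whereas slide and group cannot be told apart where either transductant is set against either parental line. Lmo2 signal itself in pro-B(+) cells exceeded that of pro-B(-) cells 2.76-fold (limma adjusted p = 2.80e-06), and that of pro-B(-)/LMO2 cells exceeded pro-B(-)/Mock 1.53-fold (adjusted p = 5.55e-05). Its mean level was 2.10 in pro-B(+) and 0.96 in pro-B(-)/LMO2 cells, which lie on different slides. Whether the probe also reads the transcript of the vector was not examined. In what follows, "between the lines" means pro-B(+) over pro-B(-) cells, and "with Lmo2" means pro-B(-)/LMO2 over pro-B(-)/Mock cells.

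**Figure D1:**
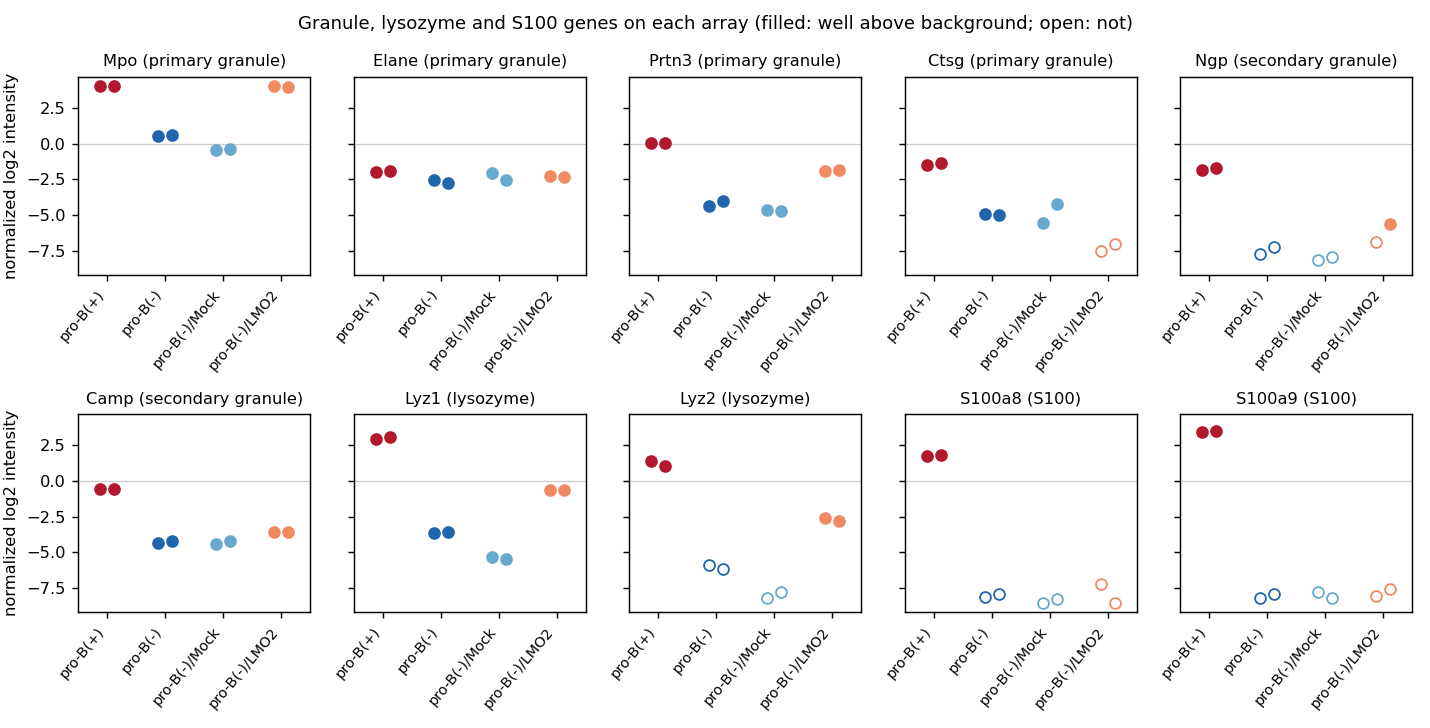
Normalized log2 intensity (y axis, 0 is the 75th percentile of the array) of the brightest probe of each of the 10 genes on the 2 arrays of each of the 4 groups, with filled points well above background and open points not. All genes but Elane stood far above pro-B(-) in pro-B(+) cells, the values of Mpo alone overlapped between pro-B(+) and pro-B(-)/LMO2 cells, and S100a8 and S100a9 were open on the 6 arrays outside pro-B(+).

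Compared with pro-B(-) cells, pro-B(+) cells expressed the whole panel more strongly. All 10 genes were tested and called higher, whereas 25.4% of the 13218 named genes tested were called higher and 26.8% lower, and 9 of 10 (all but Elane) were at least 10-fold higher, against 1.51% of the genes tested. Where both lines were measured, the fold was 95.2 for Lyz1, between 10.7 and 18.5 for Mpo, Prtn3, Ctsg and Camp, and 1.60 for Elane. The other 4 genes were not well above background in pro-B(-) cells, and their folds are lower bounds that set no order among them, at least 610-fold for S100a9, at least 193-fold for S100a8, at least 126-fold for Lyz2 and at least 16.2-fold for Ngp. These 4 were tested only because they were well above background in pro-B(+) cells, so hardly any call but higher was open to them. The counts of 10 and 9 members above include them, as the shares of all genes include genes of this kind.

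The Lmo2 vector moved a subset of the panel. Of 7 members that could be tested between pro-B(-)/LMO2 and pro-B(-)/Mock, 5 were called higher (Mpo, Prtn3, Camp, Lyz1 and Lyz2) and 1 lower (Ctsg), while 30.7% of 12924 named genes were called higher and 37.4% lower. Lyz1, Mpo and Lyz2 rose by 10-fold or more, which 0.851% of the genes tested did. Lyz2 was tested only because it was well above background with Lmo2, and Ctsg only because it was so with the empty vector. Elane was tested and not called, Ngp was well above background on 1 of the 2 pro-B(-)/LMO2 arrays alone and was not tested, and S100a8 and S100a9 were at background on all 4 arrays of the transductants. These RNAs come from whole cultures, in which fewer cells of a type and less RNA per cell cannot be told apart.

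**Figure D2:**
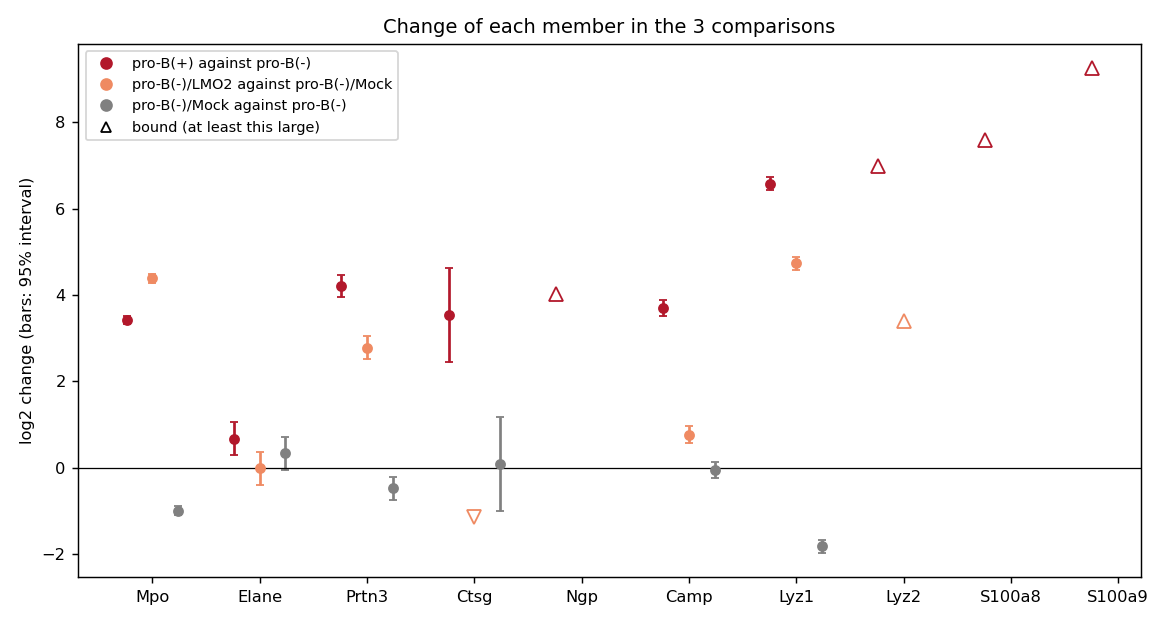
Log2 change of the brightest probe of each gene (y axis) between the lines, with Lmo2, and for the empty vector over untransduced pro-B(-) cells, as circles with 95% intervals of the limma fit, and as open triangles where 1 group was at background and the change is a bound. Mpo is the gene whose change with Lmo2 (4.38) was above that between the parental lines (3.43), and the points of S100a8, S100a9 and Ngp are missing for the Lmo2 vector because these genes were not tested there.

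Among primary granule genes, Mpo encodes myeloperoxidase, which makes hypochlorous acid in the phagosome. Its signal was 3.99 and 4.02 on the pro-B(+) arrays, 0.56 and 0.60 on the pro-B(-) arrays, -0.43 and -0.40 on the pro-B(-)/Mock arrays, and 4.0 and 3.94 on the pro-B(-)/LMO2 arrays. The pro-B(+) and pro-B(-)/LMO2 arrays overlapped, and both lay far above the pro-B(-) and pro-B(-)/Mock arrays. Between the lines Mpo was higher by 10.7-fold (log2 3.43, SE 0.039, adjusted p = 4.14e-07), and with Lmo2 by 20.9-fold (log2 4.38, SE 0.039, adjusted p = 3.89e-07). The change with Lmo2 exceeded that between the parental lines by 0.96 on the log2 scale (95% interval of the parental minus the Lmo2 change, -1.09 to -0.82, adjusted p = 9.74e-05). Between pro-B(-)/LMO2 and pro-B(+) cells the difference was -0.04 (95% interval -0.13 to 0.06, adjusted p = 0.406). Mpo also fell by 0.99 from pro-B(-) to pro-B(-)/Mock cells (adjusted p = 2.99e-05), so that the change with Lmo2 was counted from a lower start.

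Prtn3 encodes proteinase 3, a serine protease of the same granules. Its values were 0.03 and 0.05 in pro-B(+), -4.33 and -4.01 in pro-B(-), -4.61 and -4.69 in pro-B(-)/Mock, and -1.88 and -1.85 in pro-B(-)/LMO2 cells. No arrays of different groups overlapped, and pro-B(-)/LMO2 cells lay about midway between the parental lines. The fold between the lines was 18.5 (log2 4.21, SE 0.105, adjusted p = 3.21e-06) and that with Lmo2 6.88 (log2 2.78, SE 0.105, adjusted p = 1.44e-05). With Lmo2 it remained 3.76-fold below pro-B(+) cells (adjusted p = 2.87e-05), and the change with Lmo2 was smaller than that between the lines by 1.43 (adjusted p = 7.41e-04). The order of the levels was pro-B(+), pro-B(-)/LMO2, pro-B(-) and pro-B(-)/Mock, and each step differed, the last by 0.48 (adjusted p = 0.0113), which was no longer called without pro-B(-)/Mock replicate 2 (adjusted p = 0.0612).

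Elane, the neighbour of Prtn3, encodes neutrophil elastase and was the member that varied least. Its values were -1.98 and -1.91 in pro-B(+), -2.52 and -2.72 in pro-B(-), -2.06 and -2.51 in pro-B(-)/Mock, and -2.30 and -2.32 in pro-B(-)/LMO2 cells. All 8 arrays were well above background and lay within a narrow band, in which the pro-B(-)/LMO2 arrays fell between those of pro-B(-)/Mock. Elane was 1.60-fold higher between the lines (log2 0.68, SE 0.154, adjusted p = 0.0155), and the change with Lmo2 was -0.02 (95% interval -0.40 to 0.37, adjusted p = 0.928). The parental call was lost without pro-B(+) replicate 1 (adjusted p = 0.0545), without pro-B(+) replicate 2 (adjusted p = 0.0773), without pro-B(-) replicate 2 (adjusted p = 0.0805) and with each array scaled to its median (log2 0.39, adjusted p = 0.0572). No neighbouring groups in the order of its levels differed beyond their spread.

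Ctsg encodes cathepsin G, another serine protease of primary granules, and was the member that went the other way with Lmo2. Its values were -1.48 and -1.39 in pro-B(+) and -4.91 and -5.01 in pro-B(-) cells. In pro-B(-)/Mock cells it was at -5.55 and -4.20, a wider spread than in any other group in which it was measured, and in pro-B(-)/LMO2 cells at -7.47 and -6.99, not well above background on either array. Ctsg was 11.5-fold higher between the lines (log2 3.53, SE 0.436, adjusted p = 0.00156). With Lmo2 it was at least 2.20-fold lower than with the empty vector (adjusted p = 0.00501) and at least 23.9-fold lower than in pro-B(+) cells (adjusted p = 9.42e-05). The first of these bounds was at least 1.38-fold against pro-B(-)/Mock replicate 1 alone and at least 3.51-fold against replicate 2 alone. From pro-B(-) to empty vector cells the difference was 0.08 (95% interval -1.01 to 1.18, adjusted p = 0.882), and it hung on which pro-B(-)/Mock array was kept, with 0.76 (adjusted p = 0.0423) without replicate 1 and -0.59 (adjusted p = 0.0828) without replicate 2.

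With Lmo2, then, 2 primary granule genes were higher, 1 was lower and 1 was not called. Further genes of these granules were taken from a list of 7, Ctsc (which activates the serine proteases), Prss57, Serpinb1a, Srgn, Cst7, Ms4a3 and Ap3b1. Between the lines 2 of 7 were higher and 5 lower, with a median log2 change of -0.27 beside a median of -0.01 over all genes tested, and the folds were small except for Ms4a3 (at least 3.57-fold higher). With Lmo2, 3 of 6 tested were higher (Srgn, Prss57 and Ap3b1, by 1.48-, 1.27- and 1.11-fold) and none was lower. Of all named genes tested, 25.4% were higher and 26.8% lower between the lines, and 30.7% higher and 37.4% lower with Lmo2.

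Both secondary granule genes were higher in pro-B(+) cells, and with Lmo2 Camp rose by a small fold while Ngp was not tested. Ngp, which encodes neutrophilic granule protein, was at -1.87 and -1.70 in pro-B(+) cells, and lay at background on both pro-B(-) arrays (-7.74 and -7.26), both pro-B(-)/Mock arrays (-8.11 and -7.90) and 1 pro-B(-)/LMO2 array (-6.89). The other pro-B(-)/LMO2 array, at -5.59, was well above background. Ngp was at least 16.2-fold higher between the lines (adjusted p = 2.01e-04), and pro-B(+) cells also stood above pro-B(-)/LMO2 cells (adjusted p = 2.53e-04), for which no fold is given because 1 of 2 arrays was at background.

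Camp encodes the cathelicidin precursor. Its brighter probe was at -0.56 and -0.57 in pro-B(+), -4.32 and -4.21 in pro-B(-), -4.43 and -4.21 in pro-B(-)/Mock, and -3.57 and -3.55 in pro-B(-)/LMO2 cells. Pro-B(-) and empty vector arrays overlapped, and the pro-B(-)/LMO2 arrays lay a little above both. Camp was 13-fold higher between the lines (log2 3.70, SE 0.0769, adjusted p = 1.85e-06). With Lmo2 it was 1.70-fold higher (log2 0.76, SE 0.0769, adjusted p = 4.40e-04), a change smaller by 2.94 than that between the lines (adjusted p = 2.50e-05). The dimmer probe gave 8.98-fold and 1.61-fold, and its change with Lmo2 was no longer called with normexp background correction (log2 0.11, adjusted p = 0.0923).

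Of 11 further genes of secondary and later granules on the array, 8 were tested between the lines, and 7 were higher and none lower, with a median change of 1.91 when dim genes were set at their bounds. Ltf (lactoferrin) was at least 27.0-fold higher, Chil3 (a chitinase-like lectin) 12.9-fold, Lcn2 (lipocalin 2, which binds iron-loaded siderophores) 7.84-fold and Mmp8 (neutrophil collagenase) at least 4.31-fold. Hp (haptoglobin) differed more with the vector, by 11.6-fold with Lmo2 and 2.86-fold between the lines. With Lmo2, 3 of 6 were higher (Hp, Lcn2 and Itgb2) and 2 lower (Slpi and Chil3), and the Lcn2 change was 3.42-fold. Ltf and Mmp8 were at background on all arrays outside pro-B(+) cells, and Mmp9, Cd177 and Fcnb on all 8. The NADPH oxidase, which feeds hydrogen peroxide to myeloperoxidase, had 3 of 6 subunits higher and 1 lower between the lines. Cybb (a membrane subunit, at least 21.4-fold) led and was at background in the 3 other groups. With Lmo2, 4 of 5 subunits tested were higher by 1.1- to 1.92-fold. The secondary granule and oxidase counts stand beside 25.4% of named genes higher and 26.8% lower between the lines. The shares with Lmo2 were 30.7% and 37.4%.

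Lysozyme cleaves bacterial cell walls, and mice carry a pair of genes for it. Lyz1 was at 2.93 and 3.05 in pro-B(+), -3.60 and -3.56 in pro-B(-), -5.34 and -5.46 in pro-B(-)/Mock, and -0.66 on both arrays of pro-B(-)/LMO2 cells. Lyz2 was at 1.38 and 1.04 in pro-B(+) and -2.61 and -2.80 in pro-B(-)/LMO2 cells, and not well above background on the pro-B(-) (-5.89 and -6.17) and pro-B(-)/Mock arrays (-8.20 and -7.76). Both genes were ordered alike, with no overlap between pro-B(+), pro-B(-)/LMO2 and the remaining groups. With Lmo2 Lyz1 rose 26.7-fold (log2 4.74, SE 0.0607, adjusted p = 6.57e-07) and Lyz2 at least 10.5-fold (adjusted p = 1.39e-05). Even so, pro-B(+) cells stood above pro-B(-)/LMO2 cells by 12.6-fold for Lyz1 (adjusted p = 6.83e-07) and 15.1-fold for Lyz2 (adjusted p = 2.08e-05). The Lyz1 change with Lmo2 was smaller than that between the lines by 1.84 (adjusted p = 5.05e-05).

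Lyz1 and Mpo were also lower in empty vector cells than in the untransduced line. Lyz1 fell by 1.82 from pro-B(-) to pro-B(-)/Mock cells (adjusted p = 1.97e-05), and against the untransduced pro-B(-) cells it was 7.57-fold higher with Lmo2 (adjusted p = 1.1e-06), where Mpo was 10.5-fold higher (adjusted p = 2.79e-07). Of 7 members tested between pro-B(-)/LMO2 and untransduced pro-B(-) cells, 5 were higher (Mpo, Prtn3, Camp, Lyz1 and Lyz2) and 1 lower (Ctsg), while 35.6% of named genes were called higher and 41.7% lower. That comparison is between slides and shares the pro-B(-)/LMO2 arrays with the comparison of the vectors. In it too, Lyz2 and Ctsg were each well above background in 1 of the groups alone. In all, 6 members could be tested between empty vector and untransduced cells, of which 3 were lower (Mpo, Prtn3 and Lyz1) and none higher, beside 29.3% of 12897 named genes called lower and 30.3% called higher. This comparison shares its arrays with the other ones and is confounded with the slide. With 1 array of pro-B(-)/Mock left out, Ctsg (without replicate 1) or Elane (0.56 without replicate 2, adjusted p = 0.0128) was called higher.

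S100a8 and S100a9 were well above background in pro-B(+) cells alone. S100a8 was at 1.76 and 1.80 and S100a9 at 3.43 and 3.46 on the pro-B(+) arrays. On the other 6 arrays neither was well above background, with values between -8.53 and -7.18 for S100a8 and between -8.21 and -7.58 for S100a9. In processed intensity, S100a9 read 10258 and 9476 units in pro-B(+) cells and 2.26 to 3.33 units on the other 6 arrays. Neither rose with Lmo2 to a measurable level: compared with pro-B(-)/LMO2 cells, pro-B(+) cells were at least 222-fold higher for S100a8 (adjusted p = 1.26e-05) and at least 705-fold higher for S100a9 (adjusted p = 1.12e-06). The order of the 3 dim groups cannot be read for these genes.

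Set against the pro-B(+) line, pro-B(-)/LMO2 cells stood lower for 8 of 10 members, beside 43% of named genes called lower, and the exceptions were Mpo and Elane (0.36 lower on the log2 scale, adjusted p = 0.0765). Of the 8, Ctsg, Ngp, S100a8 and S100a9 were tested only because they were well above background in pro-B(+) cells. The change between the lines was larger than that with Lmo2 for 9 of 10 members, against 33.4% of 13732 named genes, and smaller for Mpo, against 25.3%. For Ctsg, Ngp, Lyz2, S100a8 and S100a9 this difference rests in part on signals at background, and that of Elane (0.69, adjusted p = 0.0408) was lost under several alternatives given further on.

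Other S100 genes were less restricted. Of 13 on the array, 10 were tested between the lines, and 7 were higher and none lower, with a median change of 0.75 when dim genes were set at their bounds. S100a6 was 6.25-fold and S100a1 4.29-fold higher. With Lmo2, 7 of 9 were higher and 2 lower (S100a13 and S100a16), and S100a3 had the largest fold (5.29-fold). Among receptors proposed for S100A8 and S100A9, Tlr4 was at least 4.01-fold higher between the lines and at background in the 3 other groups, whereas Bsg was not called in either comparison. In all, 3 of 5 receptor genes were higher and 1 lower between the lines, and 2 of 4 were higher with Lmo2 (Cd36 by at least 2.35-fold and Ly96 by 1.07-fold). For these S100 and receptor counts, the shares of all named genes were 25.4% higher and 26.8% lower between the lines. With Lmo2 they were 30.7% and 37.4%.

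Regulators of granule genes changed in both directions between the lines and with Lmo2. Cebpa, needed for the granulocyte-monocyte progenitor, was at mean levels of -1.17, -3.72, -4.11 and -2.37 in pro-B(+), pro-B(-), empty vector and Lmo2 vector cells, 5.85-fold higher between the lines (adjusted p = 1.88e-06) and 3.33-fold with Lmo2 (adjusted p = 7.26e-06). Irf8, which favours monocytes over neutrophils, was 4.28-fold (adjusted p = 1.50e-06) and 3.53-fold higher (adjusted p = 2.85e-06). Cebpd rose by 2.55- and 2.15-fold, Cebpb by 1.65- and 1.82-fold and Spi1, which encodes PU.1, by 1.46- and 1.27-fold. Cebpe, the regulator of secondary granule genes, was 2.82-fold higher between the lines (adjusted p = 0.00927), and its 1.37-fold change with Lmo2 was not called (adjusted p = 0.228). Gfi1, a repressor needed for neutrophil maturation, was 1.19-fold higher in pro-B(+) cells and 1.48-fold lower with Lmo2. Myb and Runx1 were lower in both comparisons, Myb by 1.73- and 1.39-fold and Runx1 by 2.16- and 1.13-fold, and Csf3r, the G-CSF receptor, had a mean level of 6.05 in pro-B(+) and 6.22 in pro-B(-) cells, 1.12-fold lower between the lines (adjusted p = 0.0901, not called) and 1.20-fold lower with Lmo2 (adjusted p = 0.0163). Over the 10 regulators, 7 were higher and 2 lower between the lines, beside 25.4% and 26.8% of all named genes tested. With Lmo2, 5 were higher and 4 lower, beside 30.7% and 37.4%.

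**Figure D3:**
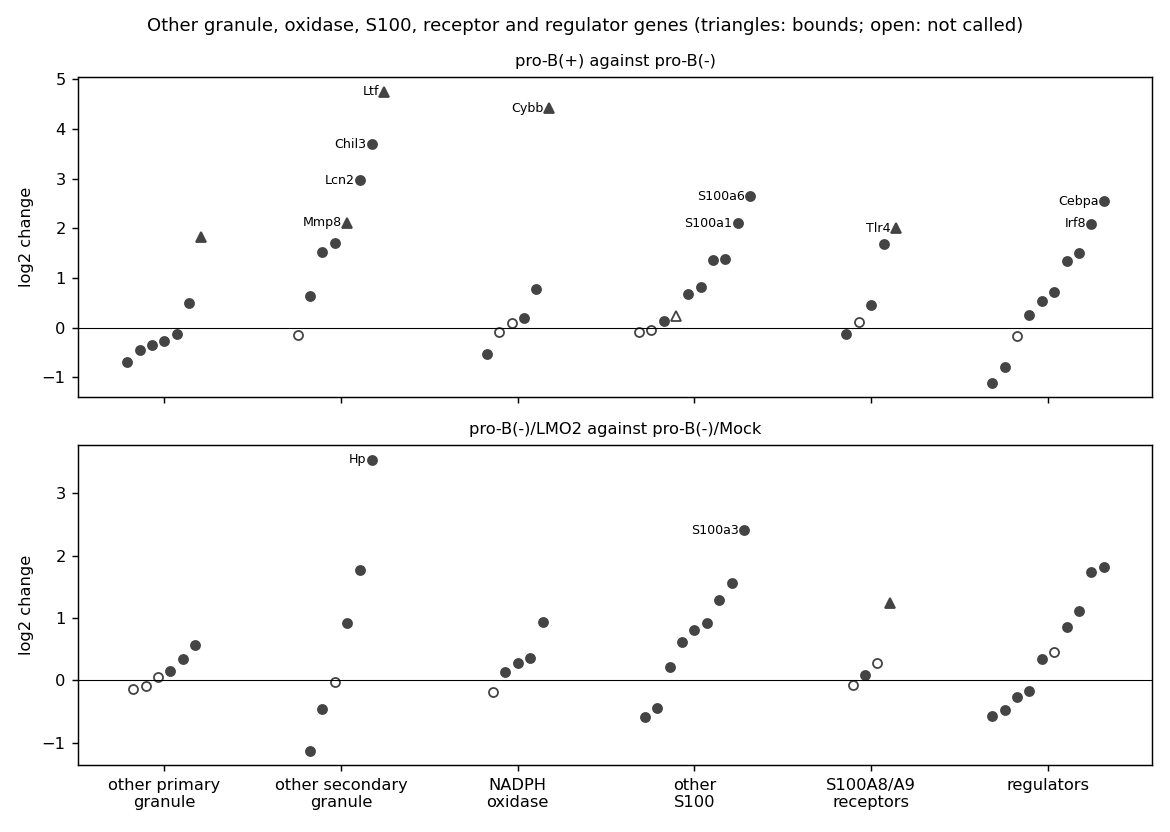
Log2 change (y axis) of each gene tested in 6 lists (x axis) between the lines (upper panel) and with Lmo2 (lower panel), with triangles for bounds, open symbols for genes not called, and names for genes called with a change of 4-fold or more. Ltf, Cybb, Chil3 and Lcn2 stand highest in the upper panel, and Hp and S100a3 in the lower one.

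Over these 6 lists together, 29 of 46 genes tested were higher and 9 lower between the lines, and 24 of 40 were higher and 8 lower with Lmo2, beside the shares of all genes given above. Ms4a3, Ltf, Mmp8, Cybb, Tlr4 and S100b (not called) were tested between the lines only because they were well above background in pro-B(+) cells. Cd36 was tested with Lmo2 only through pro-B(-)/LMO2 cells. Hardly any call but higher was open to these genes, which the counts include. With each array scaled to its median, the split was 25 higher and 16 lower between the lines, and 18 higher and 12 lower with Lmo2. Changes of 4-fold or more were called for 10 genes between the lines and for 2 with Lmo2 (Hp and S100a3). The share of all genes was not taken at that fold, so these counts have nothing to be set against.

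Markers of other cells were measured in the same arrays. Their counts stand beside the shares of all named genes tested. These were 25.4% higher and 26.8% lower between the lines, and 30.7% higher and 37.4% lower with Lmo2. A marker at background in 1 of the groups compared was tested only through the other group. Hardly any call but higher in that other group was open to it. For neutrophils, 7 markers were on the array (Csf3r and Mmp8 are in the lists above as well), of which 3 of 6 tested were higher and none lower between the lines. Il1r2, a decoy receptor for interleukin 1, was higher by 23.4-fold between the lines and by 23.3-fold with Lmo2. Csf3r dominates the summed level of this list in multiples of the 75th percentile, which was 66.7 to 69.3 in pro-B(+), 70.5 to 78.6 in pro-B(-), 65.8 to 67.3 in empty vector and 55.5 to 59.7 in Lmo2 vector cells. Retnlg and Mmp8 were at background outside pro-B(+) cells, and with Lmo2 2 of 3 markers tested were higher and 1 lower. For monocytes and macrophages, 11 of 11 markers tested were higher in pro-B(+) cells, among them Csf1r (the M-CSF receptor, 21.8-fold), Ctss (21.2-fold), Cd14 (at least 18.3-fold) and Adgre1 (F4/80, 6.27-fold). The summed level of 12 such markers was 29.7 to 30.6 in pro-B(+), 2.26 to 2.34 in pro-B(-), 3.51 to 3.59 in empty vector and 7.46 to 7.84 in Lmo2 vector cells. With Lmo2, 6 of 8 tested were higher (Ccr2 by 5.20-fold) and 2 lower (Adgre1 and Mrc1). C1qa, C1qc and Mertk were at background outside pro-B(+) cells, and Cd14 in pro-B(-) cells. Between the lines these genes, like Mmp8 and Retnlg, were tested only because they were well above background in pro-B(+) cells. With Lmo2, Fcgr1 was tested only through pro-B(-)/LMO2 cells. Hardly any call but higher was open to all of these, and the counts above include them. The part of other cells in the granule gene results was not tested.

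Of 6 eosinophil, basophil and mast cell markers, 3 of 3 tested were higher in pro-B(+) cells (Prg2 by at least 6.18-fold) and 2 of 2 with Lmo2 (Cpa3 by at least 12.1-fold), and Epx, Fcer1a and Ms4a2 were at background in pro-B(+) and pro-B(-)/LMO2 cells. Every marker tested here (Prg2, Cpa3 and Mcpt8 between the lines, Cpa3 and Mcpt8 with Lmo2) was tested only through the group called higher. Hardly any other call was open to these markers, so the counts carry little weight. The summed level of the 6 markers was 0.242 to 0.254 in pro-B(+), 0.0231 to 0.0728 in pro-B(-), 0.0239 to 0.0266 in empty vector and 0.215 to 0.234 in Lmo2 vector cells. Stromal markers were higher between the lines for 7 of 8 tested (Fbn1 by at least 4.93-fold) and with Lmo2 for 5 of 9 with 1 lower, with a summed level of 9.18 to 9.84 in pro-B(+), 3.63 to 3.71 in pro-B(-), 7.99 to 8.10 in empty vector and 10.9 to 11.8 in Lmo2 vector cells, and Dcn and Lum at background in all groups. Erythroid markers summed to 3.71, 2.30 to 2.61, 7.67 to 7.82 and 12.5 to 12.6 in the same order, with 1 of 3 tested higher between the lines and 3 of 3 with Lmo2, and Alas2 was at background in all groups. The labelled pro-B identity was checked on 13 markers, of which 11, 12, 12 and 11 passed background on both arrays of each group, again in that order. Those at background were Vpreb2 and Igll1 (surrogate light chain) in pro-B(+), Cd79b in pro-B(-), and Cd79a in both transductants. Between the lines 3 of 13 pro-B markers were higher and 7 lower, with Cd79b (at least 34.9-fold) and Blnk (28.9-fold), which carry and relay the B cell receptor signal, and Kit (4.72-fold) higher, and Dntt (terminal transferase) 7.56-fold lower. With Lmo2, 4 of 12 were higher and 5 lower, with Dntt 16.2-fold higher and the recombinase genes Rag1 and Rag2 lower by 6.86- and 4.31-fold.

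**Figure D4:**
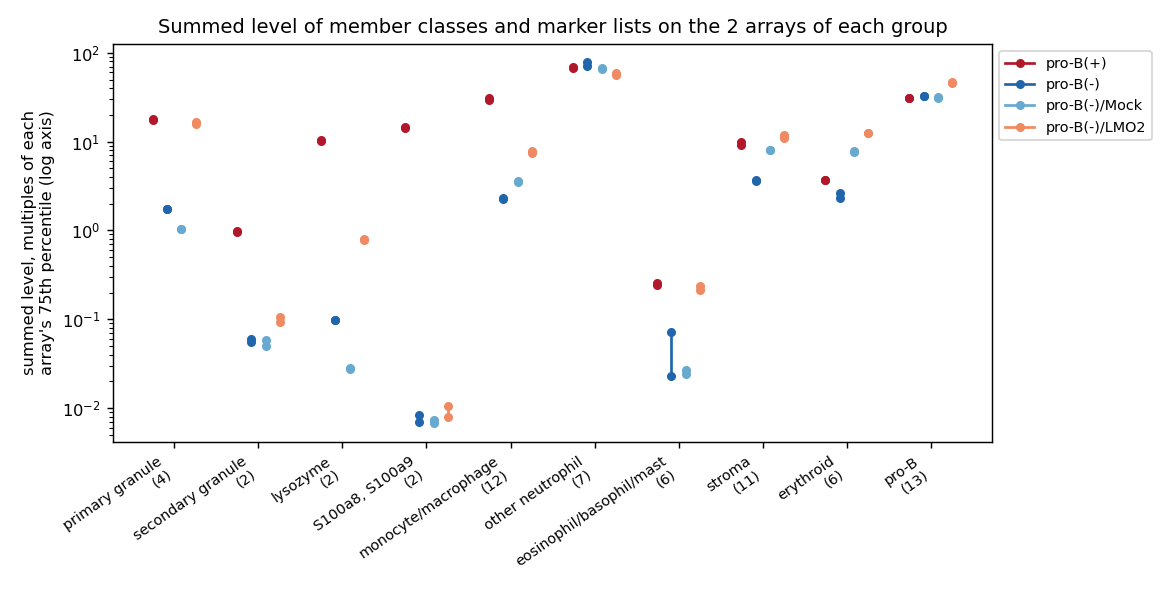
Summed level of each member class and marker list (x axis, with the number of genes on the array) in multiples of the 75th percentile of the array (log axis), with a point for each of the 2 arrays of a group joined by a line; levels of different lists rest on different probes and are to be compared between groups only. The S100 pair falls to background outside pro-B(+) cells. The primary granule sum is 15.8 to 16.5 with Lmo2 and 17.6 to 17.9 in pro-B(+) cells, and consists mostly of the Mpo signal. With Lmo2, Prtn3 stays below pro-B(+) cells and Ctsg is at background.

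Across the 4 groups, 17 of 30 steps between neighbouring levels of the members differed, all 17 between arrays of different slides, and 7 of the 30 could not be tested because neither neighbour was well above background on both arrays. Over the 8 arrays, which hold 4 groups of 2 replicates, Lyz1 and Lyz2 were most alike among the members (r = 0.998), followed by S100a8 and S100a9 (r = 0.993), Lyz1 and Prtn3 (r = 0.991), Lyz2 and Prtn3 (r = 0.990) and Ngp and Camp (r = 0.987), whereas Mpo and Ctsg were least alike (r = 0.14). Prtn3 and its neighbour Elane had r = 0.69. These values are a description, and all points share the same arrays. S100a8 and S100a9 were at background outside pro-B(+) cells, so their r mainly sets the pro-B(+) arrays against dim signals. Eif2s3y and Pygl, also at background there, each had r = 0.998 with S100a8. Signals at background enter the values of Ctsg, Ngp and Lyz2 as well.

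A search over 2055 named genes with a range of group means of at least 2 on the log2 scale gave the genes most like each member, with r from 0.908 to 0.999. Lpl (lipoprotein lipase) was first for both Lyz1 and Lyz2, at 0.92, -1.53, -2.18 and -0.43 in pro-B(+), pro-B(-), empty vector and Lmo2 vector cells, followed by the other lysozyme gene and Lilrb4a. For Mpo the first were Pth1r, Oasl2 and Itgal, and for Prtn3 they were Lcn2, Phf11b and Cebpa. Elane was nearest to Grb14, Zbtb4 and Igf2, and Ctsg to Eno2, Gja1 and Arhgdig. Galnt3 led for both secondary granule genes, followed by Sirpb1b and Asphd2 for Ngp and by Cbr1 and Gpr84 for Camp. S100a9 was nearest to Amz1, Gpnmb and Sdc3, and S100a8 to Eif2s3y, Pygl and Clec4b1. Signals at background entered the search for Ctsg, Ngp, Lyz2, S100a8 and S100a9. Eif2s3y lies on the Y chromosome, and its signal was 0.65 in pro-B(+) cells and at background on all 6 other arrays (group means of -7.56, -7.80 and -7.68), so that the lines differ in a gene of the sex chromosomes as well.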

How the data were processed

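Total RNA of 8 samples was labelled with Cy3 and hybridised to one-colour whole mouse genome arrays. The authors deposited the scanner intensity of each spot, already background subtracted and detrended per the file headers, together with flags for spots well above background. They also deposited a matrix of log2 values after 75th percentile normalization in GeneSpring, which differed from log2 of the deposited intensity by 1 constant per array and was used as an alternative.

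Groups and replicate numbers came from the sample titles. Control spots and outlier spots were left out, spots of a probe were averaged, and the 75th percentile of each array was subtracted from log2 of the processed intensity (604 to 949 units at that percentile). Of 39378 probes, 26550 (67.4%) were named by matching transcript accessions to RefSeq (GRCm38.p6). The array was annotated on another build (mm9), so coordinates are those of the RefSeq promoter windows alone. The brightest probe stood for a gene.

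limma 3.58.1 in R 4.3.3 (lmFit, eBayes) fitted 4 group means to all 8 arrays, with 4 residual degrees of freedom. A probe passed in a group when both arrays were well above background. The variance prior came from the 24583 probes that passed in 1 group or more, a probe was tested where it passed in 1 or both groups compared, p-values were adjusted by Benjamini-Hochberg over all probes tested, and calls were made under 0.05. The number of arrays limits the precision, and the smallest exact two-sided permutation p for 2 against 2 is 0.333. The scripts were tested on simulated data. Motifs and alignments used Python 3.11.15 with Biopython 1.88, and figures matplotlib 3.10.9.

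The members, gene lists and motifs were chosen with earlier results of these data known. Named were all members, all regulators, genes of other lists called with a change of 4-fold or more (up to 4 per list and comparison) and the 3 genes most like each member, and genes outside this rule were chosen after their values were seen. Alternatives were other scalings, normexp background correction with an offset of 50, other probe filters, probe averages, an intensity trend, a replicate block and leaving out each array. Same-numbered arrays deviated from their group means with correlations of -0.0272 to 0.0515, so the numbers do not pair the samples.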

Additional observations from a re-analysis of the deposited data

How the results depend on the processing

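The counts of members called (10 between the parental lines, 6 with Lmo2, 3 between pro-B(-)/Mock and pro-B(-), and 10 for the difference of the parental and the Lmo2 change) were within 1.5 times of these values under every alternative run but one. When a probe had to be well above background on all arrays compared, 6 and 5 members were left to test between the lines and for the difference, and 6 and 5 were called. Under that filter Lyz2 and Ctsg, the member called lower, could not be tested with Lmo2. With the replicate block, which changed no call of a member, the counts were 10, 6, 3 and 10, and those of the other lists 38 and 32. Leaving out 1 array at a time gave 9 to 10, 6 to 7, 3 to 4 and 9 to 10 members, 32 to 37 and 28 to 32 genes of the other lists, and 17 to 20 differing steps in the order of levels. Without pro-B(-)/LMO2 replicate 1, Ngp entered the Lmo2 counts as higher. It did so only because replicate 2 (-5.59), then the sole array of that group, was well above background. Hardly any other call was open to Ngp, and nothing is drawn from this one. The direction turned in 3 changes near 0: Camp between pro-B(-)/Mock and pro-B(-) with normexp (0.012) and with 1 pro-B(-)/Mock array left out at a time (-0.16 and 0.048), Elane with Lmo2 (-0.24 and 0.21 with those arrays left out), and Ctsg between pro-B(-)/Mock and pro-B(-) (0.76 and -0.59). The difference of the parental and the Lmo2 change of Elane (0.69, adjusted p = 0.0408) was not called under 9 alternatives, among them median scaling (0.62, adjusted p = 0.0570). Median scaling moved the median change of all probes tested from -0.04 to -0.33 between the lines and from -0.04 to -0.25 with Lmo2, and no call of a member other than Elane changed with it. For members at background in 1 group, the difference of the parental and the Lmo2 change rests on signals under the floor. So do the p-values printed beside bounds. The variance prior from all probes was an alternative chosen after seeing the data.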
